A study of Caenorhabditis elegans with 2 samples.

Results

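The genes described here act in the rewiring of synapses in the DD motor neurons of Caenorhabditis elegans: myrf-1, myrf-2, cdk-5, cyy-1 and ced-3. They were listed by name, and every UNC-55 ChIP-seq region that shared at least 1 base with the gene body or the 5 kb on either side of it was collected. The 5 genes stand among 19973 protein-coding genes, and their spans held 8 of the 2511 regions of the authors' thresholded set. The authors kept that set by IDR, the irreproducible discovery rate, which scores how steadily peaks rank from list to list. The other lists gave 44 pooled regions, which include the same 8 and, per the authors' label, span both peaks and background, and 5 regions of replicate 1 and 39 of replicate 2.

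Chromatin came from whole late embryos, sexes mixed, in 2 biological replicates that form 1 group, and no comparison between groups was made. Both replicates are of strain NC1639, in which the insertion wdIs49 on chromosome III holds UNC-55a joined to GFP under the ttr-39 promoter, with dpy-20+ beside it. The labels call the antibody unc-55, and a note in them gives the tag as GFP-FLAG. As background, the ttr-39 promoter is used as a driver for D-type motor neurons, so the fusion need not lie only in cells that normally make UNC-55, and peak lists of whole embryos do not show from which cells a region comes.

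DD neurons are GABAergic motor neurons that first form synapses onto ventral muscle and, after hatching, take these synapses apart and build new ones onto dorsal muscle. UNC-55, a COUP-TF type nuclear receptor, is known for blocking this remodelling programme in the VD neurons, which keep ventral synapses. The samples here were whole embryos, so they precede the remodelling after hatching, and no neuron class was isolated. MYRF-1 and MYRF-2 are membrane-bound transcription factors that are cleaved and enter the nucleus to start the programme. CYY-1, a cyclin Y, acts in the removal of old synapses, CDK-5, a cyclin-dependent kinase, in the formation of new ones, and CED-3, a caspase, in the breakdown of presynaptic material through cleavage of the gelsolin GSNL-1.

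The sequence at 4 of the 8 IDR summits is shown first: the 3 whose summits lay in a promoter window of a rewiring gene, and the strongest of the 8. A summit is the position of highest signal that the authors' caller gave a region, and a summit counted as promoter when it lay within the 1000 bp before or the first 200 bp after the start of a protein-coding transcript. Each of the 8 IDR regions is 360 bp wide with the summit at its middle, so its ends give a set width about the summit. Each run covers 100 bp on each side of the summit, on the plus strand of WBcel235 (ce11), read from the RefSeq genome sequence. Capitals mark every match, on either strand, to 5 short motifs: AGGTCA, the core bound by COUP-TF receptors, AAGGTCA, which contains it, TAATCC, the core recognised by the D neuron homeodomain factor UNC-30, and GAGAGA and ACGCAG. The last pair was included because earlier results of these data had it often at summits, so it is a description only. On chromosome II the myrf-1 window is chrII:10502864-10503064, and on chromosome X the myrf-2 window is chrX:10188465-10188665. On chromosome III the cdk-5 window is chrIII:13466357-13466557, and the window beyond the 3′ end of cyy-1 is chrIII:8411988-8412188.
myrf-1: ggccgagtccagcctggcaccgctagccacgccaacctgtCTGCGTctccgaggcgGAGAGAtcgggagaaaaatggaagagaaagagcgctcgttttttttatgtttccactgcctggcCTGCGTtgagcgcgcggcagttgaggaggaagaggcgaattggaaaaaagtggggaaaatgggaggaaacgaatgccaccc
myrf-2: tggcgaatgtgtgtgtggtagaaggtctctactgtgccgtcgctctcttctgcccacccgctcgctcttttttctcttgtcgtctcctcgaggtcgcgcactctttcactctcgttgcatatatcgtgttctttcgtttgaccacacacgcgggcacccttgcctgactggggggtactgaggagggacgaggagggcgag
cdk-5: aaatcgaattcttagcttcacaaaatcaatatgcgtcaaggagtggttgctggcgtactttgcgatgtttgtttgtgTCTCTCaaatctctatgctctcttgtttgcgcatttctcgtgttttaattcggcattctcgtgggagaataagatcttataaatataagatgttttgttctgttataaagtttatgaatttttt
cyy-1: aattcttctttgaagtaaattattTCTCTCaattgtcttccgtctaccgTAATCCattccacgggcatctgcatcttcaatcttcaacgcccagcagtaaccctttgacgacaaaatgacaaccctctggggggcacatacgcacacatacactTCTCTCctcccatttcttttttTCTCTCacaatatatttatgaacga

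The COUP-TF core AGGTCA was in 0 of the 8 windows, against 6.33% of all 2511 IDR windows of the same length. The longer form AAGGTCA contains this core, so its count in the 8 had to be 0 too, and 1.31% of all IDR windows held it. Among the other motifs searched here, GAGAGA was in 3 of the 8 windows, against 51.6% of all IDR windows. These were the myrf-1 window with 1 copy, the cdk-5 promoter window with 1 copy and the window beyond cyy-1 with 3 copies, and in the windows of cdk-5 and cyy-1 its reverse complement TCTCTC is what the printed strand shows. The motif ACGCAG was in 1 of the 8, against 27.4% of all IDR windows. It had 2 copies in the myrf-1 window, both on the minus strand, so that the printed strand reads CTGCGT at each. The UNC-30 core was in 1 of the 8, the window beyond cyy-1, against 3.94% of all IDR windows. The printed myrf-2 window held none of the 5 motifs, so it has no capitals. No match says only that these letters are absent from the window. The GC content of the 8 windows ranged from 32.8% to 57.7% with a median of 39.6%, against a median of 44.3% over all IDR windows, and the myrf-1 and printed myrf-2 windows, at 56.7% and 57.2%, lay at the upper end.

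Of the 5 rewiring genes, 4 had at least 1 IDR region in the gene and flanks, against 24.6% of all protein-coding genes. The counts were 1 at myrf-1, 2 at myrf-2, 3 at cdk-5, 2 at cyy-1 and 0 at ced-3. At least 2 regions were found at 5.86% of all protein-coding genes and at least 3 at 1.45%. A promoter window held an IDR summit in 3 of the 5, myrf-1, myrf-2 and cdk-5, against 7.34% of all protein-coding genes. When the IDR set was replaced by as many of the strongest regions of replicate 1's own list, that is without replicate 2, 0 of the 5 had a summit in a promoter window, and without replicate 1 the count was 2. Both single-replicate sets had regions at 3 of the 5 genes, with cdk-5 at 0 without replicate 2 and myrf-1 at 0 without replicate 1, and the regions numbered 4 without replicate 2 and 8 without replicate 1. The genes were named with earlier results of these data known, so these counts are a description and no test was made.

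**Figure D1:**
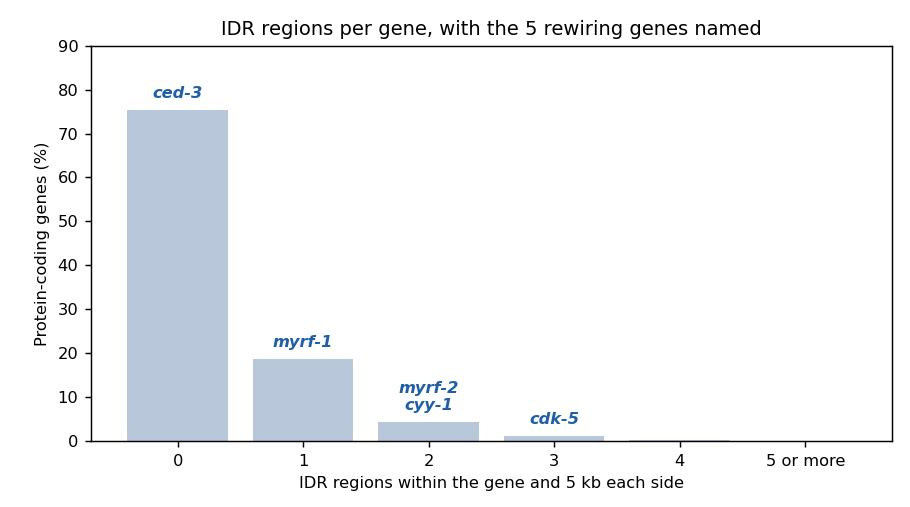
Percentage of the 19973 protein-coding genes (y axis) by the number of IDR regions within the gene and 5 kb each side (x axis), with the rewiring genes named above their bar. The count of 0, where ced-3 stands, holds 75.4% of genes, while cdk-5 stands at 3 regions, a count that 1.14% of genes had.

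Longer spans can hold more regions, and the spans differed: 23.4 kb at myrf-2, 15.9 kb at ced-3, 15.6 kb at myrf-1, 13.5 kb at cyy-1 and 11.7 kb at cdk-5, against a median of 12.03 kb over all protein-coding genes. Per kb of span, cdk-5 had 0.257 IDR regions, cyy-1 0.148, myrf-2 0.0853 and myrf-1 0.0643. Over all protein-coding genes, their summed regions divided by their summed spans gave 0.0245, and the median gene had 0 regions. At least as many IDR regions per kb as at cdk-5 were found in 0.396% of protein-coding genes, at least as many as at cyy-1 in 3.73%, as at myrf-2 in 11.9% and as at myrf-1 in 21.0%. The cdk-5 locus therefore had the most IDR regions of the 5 and the shortest span. Its count includes regions nearest to starts of ant-1.1 and kel-3, and each region lay in the spans of 5 or 6 genes. The density is therefore shared with neighbouring genes.

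**Figure D2:**
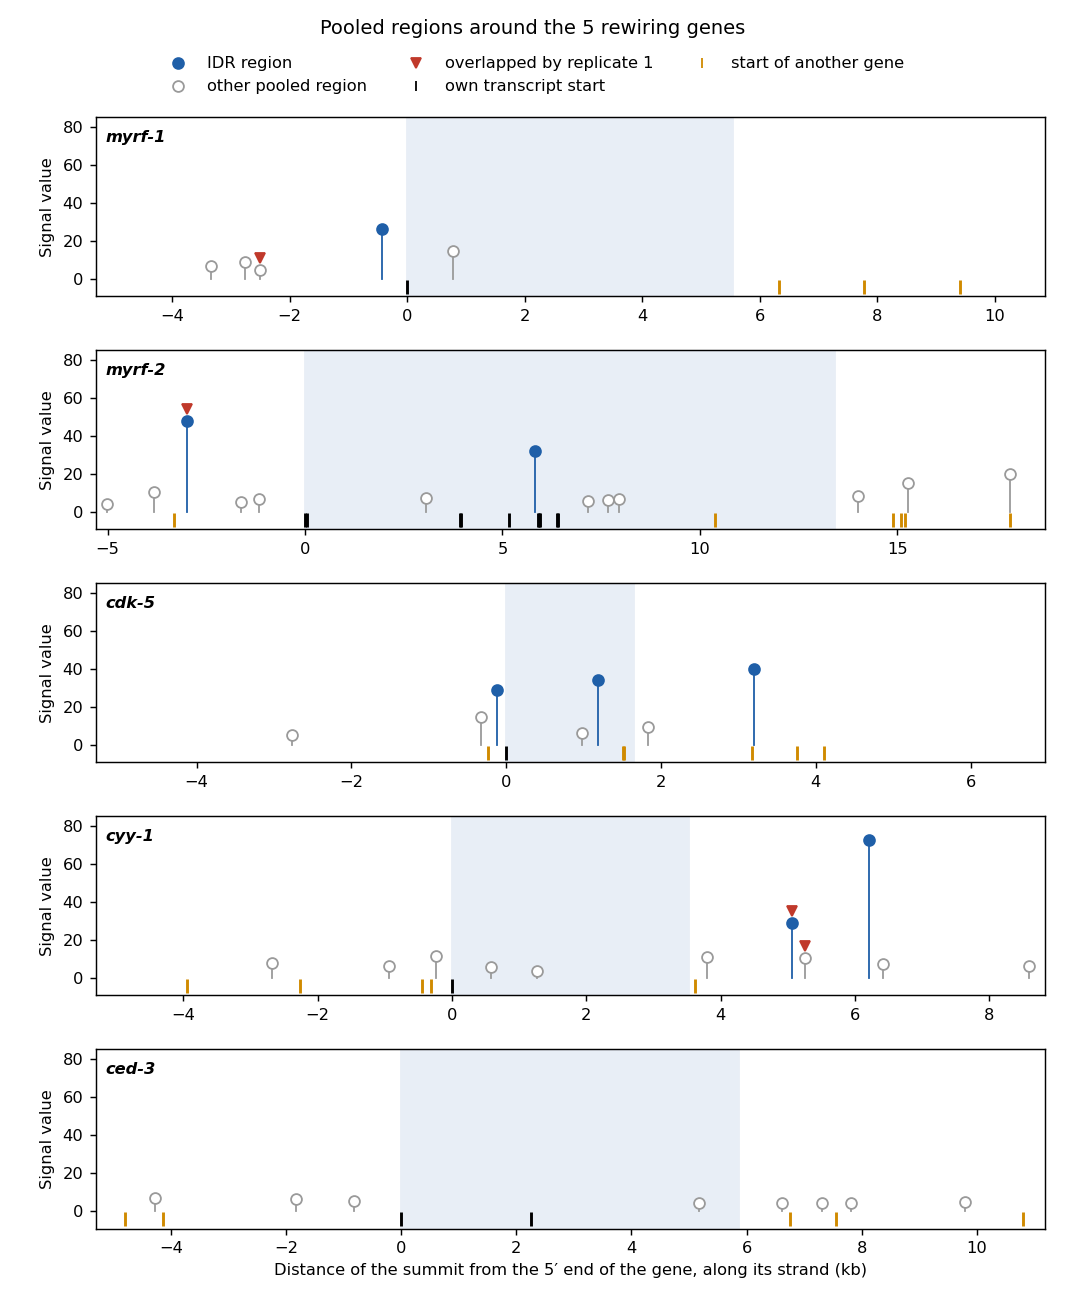
Signal value of each pooled region (y axis) against the distance of its summit from the 5′ end of each rewiring gene along its strand in kb (x axis); filled points are IDR regions, open points other pooled regions, red triangles mark regions overlapped by replicate 1's list, ticks mark protein-coding transcript starts and shading the gene body. Every point at ced-3 lies at or below 7.22, and the tallest point at cyy-1, 72.2, lies beyond the 3′ end of the gene.

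The 8 IDR regions had signal values from 26.1 to 72.2 with a median of 32.9, and 3 of them lay above the median of the whole IDR set, 34.4. The signal value is set by the authors' peak caller against a control and is not scaled between lists, so it is compared within a list only. By distance, 3 of the 8 summits had a start of the rewiring gene itself as their nearest protein-coding transcript start, 1 each at myrf-1, myrf-2 and cdk-5. The other 5 lay nearer to a start of a neighbouring gene. No share over all genes is given here for these counts by distance. Summits in a promoter window of any protein-coding gene numbered 5 of the 8, against 48.8% of all IDR regions.

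The transcription factor genes come first. At myrf-1 (WBGene00004134, chromosome II, 10496987 to 10502541, minus strand), the IDR region covered 10502784 to 10503143, and its summit stood at -423 bp from the only annotated start. The summit lies in an exon of the noncoding RNA gene F59B10.7, which is annotated upstream of myrf-1 on the other strand. Its signal value was 26.1, rank 2146 of 2511, so it stood near the weak end of the set. The overlapping region of replicate 2 had a signal value of 21.9 and rank 2618, and its summit lay 6 bp away. Replicate 1's list had no region there, and its nearest summit was 1991 bp away.

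Around myrf-1 the pooled list held 4 further regions, all nearer to the start of myrf-1 than to any other start. The strongest, at 14.9 and rank 5044 of 30000, had its summit in an intron at 773 bp, and replicate 2's list had it at 14.5 and rank 4815. The other 3 lay upstream at -2505, -2761 and -3346 bp, with signal values of 5.01, 9.14 and 6.81. Replicate 1's list had 2 regions in the span, neither at the promoter. One of these overlapped the weakest pooled region, with its summit at -2414 bp, a signal value of 2.25 and rank 3011 of 3577. The other, at 2.65 and rank 1882, lay in a coding exon of ZK666.8 and overlapped no pooled region.

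At myrf-2 (WBGene00008999, chromosome X, 10180940 to 10194377, minus strand), which has 10 annotated transcript starts, both IDR regions stood above the myrf-1 region. One ran from 10188385 to 10188744, inside the gene, with its summit in an intron at -95 bp relative to an internal start of myrf-2. It had a signal value of 31.9 and rank 1492, and replicate 2's list had it at 32.4 and rank 1280, with the same summit. Replicate 1's nearest summit was 8937 bp away. No IDR summit lay in the promoter window at the 5′ end of the gene.

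The second myrf-2 region ran from 10197200 to 10197559, at -3003 bp relative to the nearest myrf-2 start, in intergenic sequence. It was nearer to the divergent gene nucb-1, with its summit at -326 bp from the nucb-1 start and in that gene's promoter window. Its signal value was 48.0, rank 562. It is one of the pair of rewiring gene regions that both replicates listed: replicate 2 had it at 45.4 and rank 550, and replicate 1 at 3.30 and rank 1311, with a summit 122 bp away.

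The myrf-2 span held 11 further pooled regions, with signal values from 4.39 to 19.97, of which replicate 2's list overlapped 10 and replicate 1's list 0. The strongest, at 19.97 and rank 3323, had its summit 1 bp from a start of ncs-4, a neighbouring gene beyond the 3′ end of myrf-2. Of the 11, 6 were nearest to a myrf-2 start: 3 in coding exons at 6.98, 6.28 and 5.59, 1 in an intron at 7.57 and 2 upstream at 6.96 and 5.13. These 6 lay on either side of the median of the pooled list, 6.74.

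The kinase and cyclin genes showed a different arrangement. The gene cdk-5 (WBGene00000407, chromosome III, 13464687 to 13466342, minus strand) overlaps kel-3 on the opposite strand and is followed closely by ant-1.1, an adenine nucleotide translocase gene. Its 3 IDR regions ran along this cluster, and each lay in the spans of 5 or 6 protein-coding genes at once. The region from 13466277 to 13466636 peaked at -115 bp from the cdk-5 start, in an intron of kel-3. It also lay at -121 bp from a start of kel-3, so it stands between diverging starts that are nearly as close, and it is in the promoter windows of both genes. Its signal value was 28.7, rank 1801, and replicate 2's list had it at 24.5 and rank 2189.

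The second cdk-5 region, from 13464983 to 13465342, had its summit in introns of both cdk-5 and kel-3, 1179 bp downstream of the cdk-5 start and 334 bp downstream of a kel-3 start. Its signal value was 34.0, rank 1303, and replicate 2's list had it at 35.1 and rank 1071. The third, from 13462960 to 13463319, peaked at -23 bp from the start of ant-1.1 and in the promoter windows of ant-1.1, abcf-2 and T27E9.2. It was the strongest of the 3, at 39.9 and rank 907, and replicate 2's list had it at 39.1 and rank 827. So the region nearest the cdk-5 start was the weakest of the 3 in both the pooled and the replicate 2 list.

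Replicate 1's list held 0 regions in the cdk-5 span, and its nearest summits were 8343, 7049 and 5026 bp from these 3. The 4 further pooled regions had signal values from 5.31 to 14.7, and 0 of them had the cdk-5 start as the nearest. The strongest of them, at 14.7 and rank 5151, overlapped the promoter region and had its summit in a coding exon of kel-3.

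At cyy-1 (WBGene00022697, chromosome III, 8405874 to 8409399, plus strand), both IDR regions lay beyond the 3′ end of the gene, at the next gene downstream, ZK353.9. The region from 8411908 to 8412267 was the strongest of the 8, with a signal value of 72.2 and rank 165. Its summit was 6214 bp from the cyy-1 start and 2592 bp from the start of ZK353.9, in intergenic sequence just past that gene. Replicate 2's list had it at 67.8 and rank 171, with the same summit, while replicate 1's list had no region on it, its nearest summit being 1126 bp away.

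The other cyy-1 region, from 8410756 to 8411115, lay in an intron of ZK353.9, 5062 bp from the cyy-1 start. Both replicates listed it. Replicate 1 had it at 5.40 and rank 302 of 3577, the best rank replicate 1's list gave in any of the spans. Replicate 2 had it at 23.0 and rank 2425 of 30000, and the IDR set at 29.0 and rank 1767. The replicate summits lay 26 bp apart.

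At the cyy-1 promoter there was no IDR summit. The pooled list had a region there at 11.6 and rank 6961, whose summit stood at -239 bp from the cyy-1 start and at -73 bp from the start of the divergent neighbour ubxn-4. Replicate 2 had this region at 12.3 and rank 5953, and replicate 1 did not list it. A weaker pooled region, at 6.58, lay in the same promoter window at -930 bp, in a coding exon of ubxn-4. Inside the gene there were 2 pooled regions in introns, at 5.69 and 3.91.

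The caspase gene ced-3 (WBGene00000417, chromosome IV, 13198261 to 13204137, minus strand) had no IDR region, and its nearest one lay 36369 bp from the gene, nearest to rpl-12, a ribosomal protein gene. The pooled list held 8 regions in the span, at 4.30 to 7.22 and ranks 13586 to 26677 of 30000. Such regions are common: 87.2% of protein-coding genes had a pooled region in their span. Among the genes with one, the median strongest signal was 13.5, and the strongest was below that of ced-3 in 22.4%. Of the 8, 2 were nearest to a ced-3 start, upstream at -822 bp with a signal value of 5.17 and at -1818 bp with 6.54. Replicate 2's list had these at 5.35 and 8.33, and held 2 weak regions in ced-3 introns, at 3.69 and 3.87, which the pooled list did not. Replicate 1's list had 0 regions in the span.

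**Figure D3:**
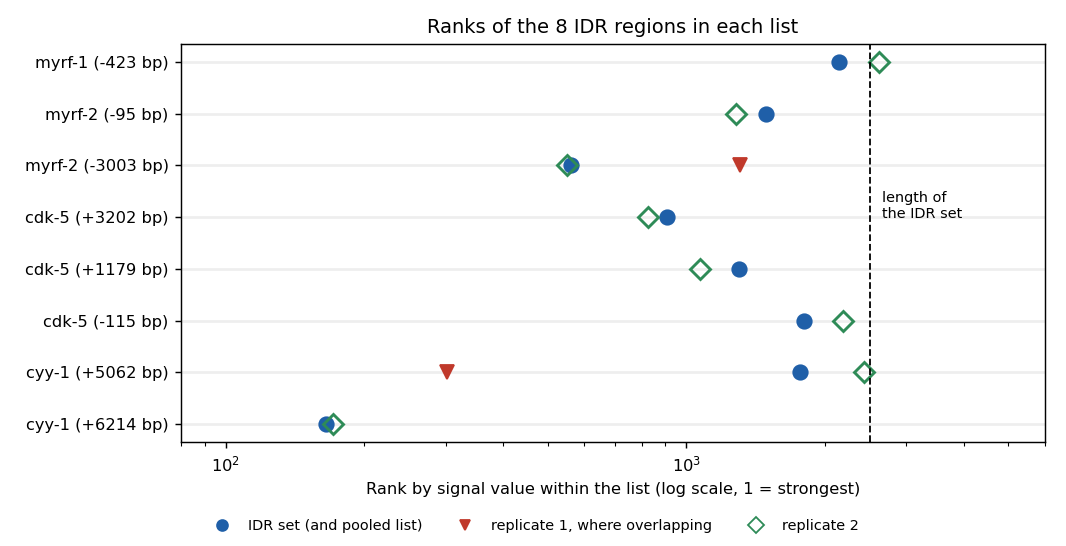
Rank by signal value within each list (x axis, log scale, 1 is the strongest) of the 8 IDR regions (y axis, named by rewiring gene and by distance of the summit from its nearest own start, negative upstream); circles are the IDR set, diamonds replicate 2 and triangles replicate 1 where its list overlapped the region. Triangles stand beside only the myrf-2 region at -3003 bp and the cyy-1 region at 5062 bp, and the diamond of the myrf-1 region, at rank 2618, is the only one beyond the length of the IDR set, 2511; the replicate lists differ in length, so ranks are read within a list.

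The replicates therefore entered these 8 regions unequally. Replicate 2's list overlapped 8 of the 8, against 2510 of all 2511 IDR regions (100% to 3 digits), and replicate 1's list 2 of the 8, against 30.7% of all IDR regions. Within replicate 1's list, 3 of the 5 rewiring genes had a region in their span, against 35% of all protein-coding genes. Replicate 2's list had a region at each of the 5, against 87.1% of all protein-coding genes. Of replicate 1's 5 regions in these spans, 2 overlapped an IDR region and 2 overlapped no pooled region. None of the 3 summits in promoter windows of myrf-1, myrf-2 and cdk-5 was in a region overlapped by replicate 1. The lists differ in length, 3577 regions in replicate 1 and 30000 in replicate 2. They also differ in median width, 284 and 360 bp, and in highest signal value, 19.1 and 306.1. Replicate 1's list held 1 distinct q-value and replicate 2's list 24286. No source used here says whether the settings of these lists matched, and neither library's depth is known. A region missing from replicate 1's list is therefore not shown to lack signal in that replicate.

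The IDR regions next outside the spans lay 8141 bp from cyy-1, nearest to sor-1 at a signal value of 100.8, and 9964 bp from myrf-2, nearest to sex-1 at 36.1. They lay 44171 bp from myrf-1 and 82699 bp from cdk-5, where they were nearest to mnk-1 at 49.3 and to mmad-1 at 120.3. The flank of 5 kb therefore sets the counts of cyy-1 and myrf-2 more than those of myrf-1, cdk-5 and ced-3.

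The construct's own genes were looked at once. The unc-55 gene on chromosome I had 0 IDR regions in its span and a strongest pooled signal of 10.5. The ttr-39 gene had 0, with 1 pooled region at 19.97, and dpy-20 had 1 IDR region, at 39.02. At least 1 IDR region was found at 24.6% of all protein-coding genes. Replicate 1's list had 0 regions at any of these 3 genes, against a region at 35% of all protein-coding genes.

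Other genes known for DD remodelling were grouped by role, 23 in all. Of these, 9 had an IDR region in their span and 3 an IDR summit in a promoter window, against 24.6% and 7.34% of all protein-coding genes. Their spans held 16 IDR regions, of which 6 were overlapped by replicate 1's list, against 30.7% of all IDR regions. The nearest start was one of the remodelling gene itself for 11 of the 16. No share over all genes is given here for that count. The lists were chosen with earlier results of these data known, and they give no independent support.

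Among direct partners, pan-1, which encodes a membrane protein that binds MYRF, had 1 IDR region, at -2108 bp from its start, with a signal value of 41.3 and a region of rank 1879 in replicate 1. The kinase activator gene cdka-1, the p35 partner of CDK-5, had 1, at 33.8, with its summit 8120 bp from the cdka-1 start and nearest to T23F11.4. The kinase gene pct-1, a partner of CYY-1, had 0, with a strongest pooled region of 20.7. These partner genes, like cyy-1, had no IDR summit in a promoter window, which 7.34% of all protein-coding genes had.

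The cell death genes ced-4, ced-9, egl-1 and gsnl-1 had 0 IDR regions, as did ced-3 itself and 75.4% of all protein-coding genes. Their strongest pooled regions were at 13.01, 15.9, 20.6 and 19.4, all higher than the 7.22 of ced-3 and all below the weakest IDR region, 23.8. CED-4 activates CED-3, CED-9 restrains CED-4, EGL-1 relieves that restraint, and GSNL-1 is the gelsolin that CED-3 cuts.

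The kinase gene dlk-1, which acts on microtubules during remodelling, had 3 IDR regions, at 38.4, 28.0 and 26.3, none in a promoter window and none overlapped by replicate 1. The strongest of these 3 was nearest to a start of F33E2.10. Both calcineurin subunit genes had IDR regions, which 24.6% of all protein-coding genes had. The gene of the catalytic subunit, tax-6, had 2, at 57.4 and 34.6, and that of the regulatory subunit, cnb-1, had 1 at 52.6. The cnb-1 summit lay at -310 bp from its start and shared bases with replicate 1's region of rank 328. The motor genes unc-104 and dhc-1 had 0, as did 75.4% of all protein-coding genes.

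Of the 6 transcriptional regulators, hbl-1 and lin-14, both timing genes, had 2 IDR regions each. Among all protein-coding genes, 24.6% had at least 1 and 5.86% at least 2. Those at hbl-1 were at 43.0 and 26.5, and those at lin-14 at 29.1 and 24.5, none in a promoter window. The hbl-1 region at 26.5 was nearest to a start of acp-5. The genes unc-55, unc-30, irx-1 and dve-1 had 0. Among the other remodelling genes, pde-4, a cAMP phosphodiesterase, had 2, with the summit at 37.5 in a promoter window. Its other region, at 35.8, was nearest to a start of R07G3.8. The adenylyl cyclase gene acy-1 had 2, and its region at 64.0 lay at -117 bp from the start and shared bases with replicate 1's region of rank 213. The other acy-1 region, at 27.2, was nearest to a start of emb-5 and in the promoter window of that gene. The genes oig-1, unc-8 and flp-13 had 0, and unc-8 had no pooled region at all.

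**Figure D4:**
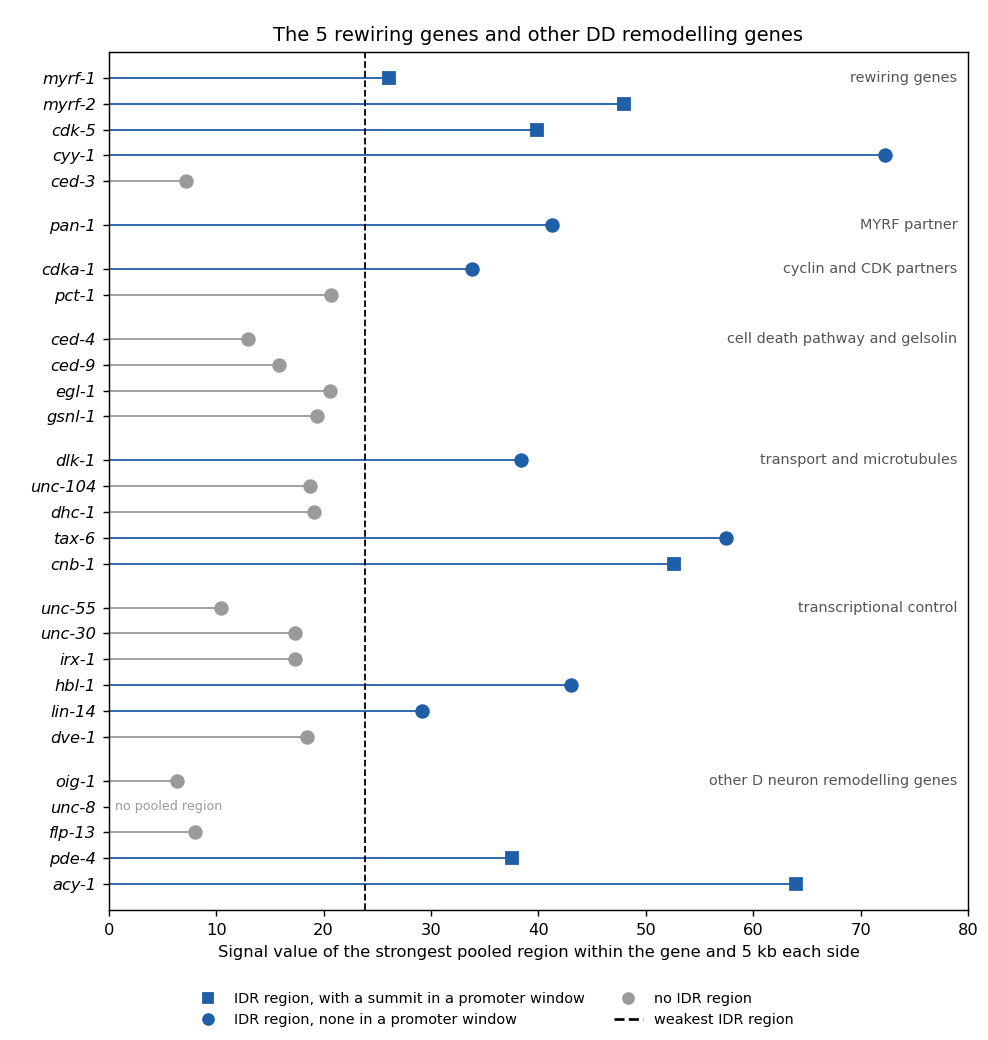
Signal value of the strongest pooled region within each gene and 5 kb each side (x axis) for the 5 rewiring genes at the top and the 23 other remodelling genes by group (y axis); squares are genes with an IDR summit in a promoter window, blue circles genes with another IDR region, grey circles genes with none, and the dashed line the weakest IDR region. The cell death genes and ced-3 all lie left of the line at 23.8, as does every other gene drawn without an IDR region, while cyy-1 lies farthest right at 72.2.

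For each rewiring gene with an IDR region, the protein-coding gene with as many IDR regions and the nearest strongest signal value in a different region was found within the IDR set. For myrf-1, at 26.06, this was C08D8.1, at 26.07, out of 3745 candidate genes. For myrf-2, at 48.0, it was kup-1, at 48.1, out of 877. For cdk-5, at 39.9, it was F57G12.1, at 40.02, out of 223, and for cyy-1, at 72.25, it was let-19, at 72.18, out of 878. The likeness is in the number and height of regions alone.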

How the data were processed

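UNC-55 ChIP-seq of whole late embryos was analysed from the authors' peak lists in ce11 coordinates, 1 list per replicate, 1 of the pooled replicates and the IDR set. Peaks were called with a control, per the labels and the notes deposited beside the files, which derive the IDR set from the other 3 lists. No source used here names the caller or the aligner. The deposited signal value and −log10 q-value are the authors' own. The q-value was 4.02 for every IDR region and 2.36 for every region of replicate 1, so regions were ranked by signal value within a list.

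All 2511 IDR regions were also the 2511 strongest of the pooled list. Genes were taken from Ensembl release 115 (WBcel235) and sequence from the RefSeq genome of that build. Positions are 1-based. An overlap was at least 1 bp, and a region in several spans counted for each. Counting in Python 3.11.15 was tested on simulated data: planted regions were recovered at 200 of 200 genes. Plots used matplotlib 3.10.9. The ce10 lists were not used. No read counts were analysed, no statistical test was made, and regions and genes are not replicates.

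The named genes were the 5 rewiring genes, the gene nearest each of their IDR summits, remodelling genes with an IDR region, and the most alike gene for each. Remodelling and construct genes without an IDR region, neighbours at pooled or replicate regions and genes next outside the spans were named after their values were seen. So were neighbours at IDR regions of the other remodelling genes. The genes and lists were chosen with earlier results of these data known. Alternatives were other flanks, promoter windows, overlaps, motif windows, the IDR regions above the median signal and each replicate alone.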

Additional observations from a re-analysis of the deposited data

How the results depend on the processing

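Of 40 values under alternatives, 31 stayed within 1.5 times the reported count. Some of the 31 could not have moved. With AGGTCA at 0, the narrower window had to give 0, AAGGTCA follows AGGTCA, and wider flanks cannot lower a count of genes. The 4 rewiring genes with an IDR region were 3 or 4 under each alternative, but not always the same genes. With 1 kb flanks cyy-1 had 0 regions, and among IDR regions above the median signal myrf-1 had 0. The gene ced-3 had 0 under each flank tried. The 8 IDR regions became 4 with flanks of 1 kb each side and 3 among IDR regions above the median signal. They were also 3 when only regions nearest to the gene's own start counted, a choice made after seeing the data. With 10 kb flanks there were 10. Among IDR regions above the median signal, 0 genes had a summit in a promoter window. With the strongest 2511 regions of a single replicate, the genes with a region were 3 to 3, the regions 4 to 8 and the genes with a promoter summit 0 to 2, the 4 and the 0 being without replicate 2. Over whole regions, GAGAGA was in 5 and ACGCAG in 2 of the 8, against 61.0% and 32.1% of all IDR regions, and within 50 bp of the summit TAATCC was in 0, against 1.99%. The cause was not tested. Depth is unknown, so no limit on what was missed can be given. No paired analysis was possible because the samples form 1 group.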

Other observations

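Of the 36 pooled regions in these spans that are outside the IDR set, 4 had the −log10 q-value of the IDR regions, 4.02. It is the highest in the pooled list and is shared by 5281 of its 30000 regions. Those 5281 include all 2511 IDR regions, so their share is not a like one for the 36. No share over all pooled regions outside the IDR set is given here, so the 4 are not shown to be more than usual. The 4 were the myrf-1 intron region at a signal value of 14.9, the region at 14.7 in a coding exon of kel-3 beside the cdk-5 start, and both regions at ncs-4 starts, at 19.97 and 15.3. Replicate 2's own list placed the stronger ncs-4 region at rank 2328 with a signal value of 23.5. Replicate 1's list overlapped 2 of the 36 and replicate 2's list 30, and for these counts too no like share is given.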
